A study of Mus musculus with 15 samples.

Results

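The genes described here are the CDK inhibitors and the retinoblastoma family on mouse arrays of stimulated AM-14 B cells. They were taken by name: the Cip/Kip inhibitors Cdkn1a (p21) and Cdkn1b (p27), the INK4 inhibitors Cdkn2c (p18) and Cdkn2d (p19), and the pocket protein genes Rb1, Rbl1 (p107) and Rbl2 (p130). They are 7 of the 18193 genes with a probe set of 1 symbol. All probe sets annotated to them were followed, 14 of the 45037 probe sets on each array, and 11 of the 14 were among the 27881 tested. The 15 arrays came from B cells of AM-14 mice, in which a transgenic B cell receptor binds self IgG, so every group carried that receptor. The groups of 3 arrays were media alone, F(ab)2 goat anti-mouse IgM (anti-IgM), the CpG oligodeoxynucleotide 1826 (CpG), PL2-3, and anti-IgM+CpG. Anti-IgM crosslinks the B cell receptor, CpG is a ligand of TLR9, and PL2-3 is an antibody to chromatin that, as chromatin immune complexes, can reach both receptors in these cells. No dose, time or source of the replicate arrays is stated in the labels, and the p-values therefore reflect only how far these arrays spread, which may be technical.

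CDK inhibitors and pocket proteins act on the same step, the passage from G1 into S phase. INK4 proteins bind CDK4 and CDK6 and keep them from D-type cyclins, whereas Cip/Kip proteins bind assembled cyclin-CDK complexes, above all those of CDK2. Hypophosphorylated pocket proteins hold E2F factors, Rb1 chiefly the activating ones and Rbl1 and Rbl2 chiefly the repressive ones, and Rbl2 with the MuvB core forms the DREAM complex of quiescent cells. Resting B cells lie outside the cycle and can be driven into it through their antigen receptor or TLR9.

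The genomic positions and promoter sequences of the members came from RefSeq on GRCm38.p6. Cdkn1a lies on chromosome 17 from 29090979 to 29100722, Cdkn1b on chromosome 6 from 134920401 to 134925525, Cdkn2c on chromosome 4 from 109660876 to 109666756, and Cdkn2d on chromosome 9 from 21288459 to 21291421. Rb1 lies on chromosome 14 from 73192858 to 73325951, Rbl1 on chromosome 2 from 157145893 to 157204534, and Rbl2 on chromosome 8 from 91070057 to 91123844. The 250 bases before the start were read for 6 of the 7 members, in 8 windows, since Cdkn1a and Cdkn2c have 2 start sites in that source. The windows of Rbl1, Rbl2 and Cdkn1b are shown because Rbl1 and Rbl2 are the members with E2F or CHR letters, and because Cdkn1b is the inhibitor whose known forkhead regulators are followed in the last paragraphs. They are written 5′ to 3′ on the gene's strand, with capitals marking a match to an E2F motif in Rbl1 and to a CHR motif in Rbl2, and with no capitals in Cdkn1b. The positions are chr2:157204535-157204784 (minus strand) for Rbl1, chr8:91069807-91070056 (plus strand) for Rbl2 and chr6:134920151-134920400 (plus strand) for Cdkn1b.
Rbl1: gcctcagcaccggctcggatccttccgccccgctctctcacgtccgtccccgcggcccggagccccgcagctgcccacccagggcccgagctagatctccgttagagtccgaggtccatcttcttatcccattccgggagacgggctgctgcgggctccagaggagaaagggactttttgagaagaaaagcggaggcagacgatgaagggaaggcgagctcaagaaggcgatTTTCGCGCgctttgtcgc
Rbl2: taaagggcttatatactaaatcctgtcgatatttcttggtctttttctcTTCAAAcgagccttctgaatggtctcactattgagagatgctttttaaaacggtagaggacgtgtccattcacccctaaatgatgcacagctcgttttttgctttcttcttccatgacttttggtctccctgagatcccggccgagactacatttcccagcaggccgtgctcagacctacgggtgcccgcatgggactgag
Cdkn1b: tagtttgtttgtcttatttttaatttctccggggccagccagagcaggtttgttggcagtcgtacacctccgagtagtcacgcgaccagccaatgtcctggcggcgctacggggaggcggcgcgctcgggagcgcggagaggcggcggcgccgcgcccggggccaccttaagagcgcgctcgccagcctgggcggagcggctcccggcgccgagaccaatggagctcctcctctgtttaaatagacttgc

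Both strands of every window were searched for 5 motifs, and no match overlapped another. The E2F letters TTTGGCGC, TTTCCCGC, TTTCGCGC and TTTGCCGC were in 1.86% of 32851 promoter windows of this length. Among the 8 windows of the members they matched in Rbl1, as TTTCGCGC 18 to 11 bases before the start. The CHR letters TTTGAA and TTTCGAA, a cell cycle element bound by MuvB complexes, were in 16.5% of all windows and matched in Rbl2, as TTCAAA 201 to 196 bases before the start. The GC box letters GGGCGG, in 32.7% of all windows, matched in Cdkn1a, Cdkn1b, Cdkn2c, Cdkn2d and Rbl1. The forkhead letters TGTTTAC and TATTTAC (5.76% of all windows) and the E-box letters CACGTG (6.02%) were in none of the 8 windows. A match describes these letters and not a bound site, and no match says only that the letters are not in these 250 bases.

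The signals were MAS5 probe set intensities on a linear scale, and the array medians lay between 263 and 514. Changes are log2 values of the signal plus 75.2, with the SE from a limma fit of all 15 arrays that held the group and the labelling kit. Replicates 1 and 2 of each group carried the Enzo label and replicate 3 the Ambion label. The anti-IgM+CpG arrays stood apart: their Xist signals were 321 to 589 against 4252 to 15543 on the other 12 arrays, and their actin 5′ to 3′ ratios were 0.105 to 0.193 although 2 of them are labelled Enzo, against 0.335 to 0.747 on the 8 other Enzo arrays and 0.108 to 0.201 on the 4 other Ambion arrays. The treatment field of that group reads none, and its titles were followed. The summed signal of 11 B cell marker genes was 267553 to 372749 in media and 105778 to 182409 in the stimulated groups. The summed signal of 7 T cell marker genes was 5711 to 7479 in media and 2142 to 4479 on the stimulated arrays. Neither the B cell nor the T cell sums of media overlapped those of the stimulated arrays, as with the brightest probe sets of Cdkn1b, Cdkn2c, Cdkn2d, Rb1 and Rbl2, and their part in those falls was not tested. Erythroid, myeloid and NK sums are given further on, after the INK4 genes. The median change of all tested probe sets against media was -0.13 with anti-IgM, -0.22 with CpG, -0.12 with PL2-3 and -0.38 with anti-IgM+CpG, and with the arrays shifted to the same median it was 0.12, 0.14, 0.07 and 0.21. The share of higher values among all calls was 54.2%, 44.4%, 47.0% and 34.5% in these comparisons, 58.7%, 55.5%, 54.4% and 53.9% after quantile normalization, and 78.2%, 76.4%, 65.2% and 74.8% with equal medians.

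In media Cdkn1b, Cdkn2c, Cdkn2d, Rb1 and Rbl2 stood above every stimulated group, and Cdkn1a stood level. How many of all probe sets separate in this way was not counted, and the shares given below are of limma calls. Each gene is followed first through its brightest probe set, which was at or above the array median on all 15 arrays for all 7 genes. Of these 7 probe sets, 6 fell with anti-IgM, where 5.88% of all probe sets tested were called lower by limma and 6.95% higher. With CpG 5 of the 7 fell, where 12.1% of all probe sets were called lower and 9.66% higher. With PL2-3 6 of the 7 fell, where 9.81% were called lower and 8.70% higher, and with anti-IgM+CpG 6 of the 7 fell, where 24.4% were called lower and 12.9% higher. None of the 7 rose in any of these comparisons. Over all 13160 genes tested by their brightest probe set, 7.81%, 15.1%, 12.2% and 23.8% fell in these comparisons. The shares that rose were 9.07%, 12.3%, 11.4% and 16.7%. The 4 comparisons share the 3 media arrays and are not independent of one another. The members and the lists below were chosen with earlier results of these data known. Their counts beside the shares of all probe sets or genes are therefore a description only. In bulk RNA fewer cells of a type and less RNA per cell cannot be told apart. The 6 genes other than Cdkn1a had negative estimates after quantile normalization and with equal medians too. With 3 arrays against 3, no exact permutation test can give a two-sided p below 0.1.

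**Figure D1:**
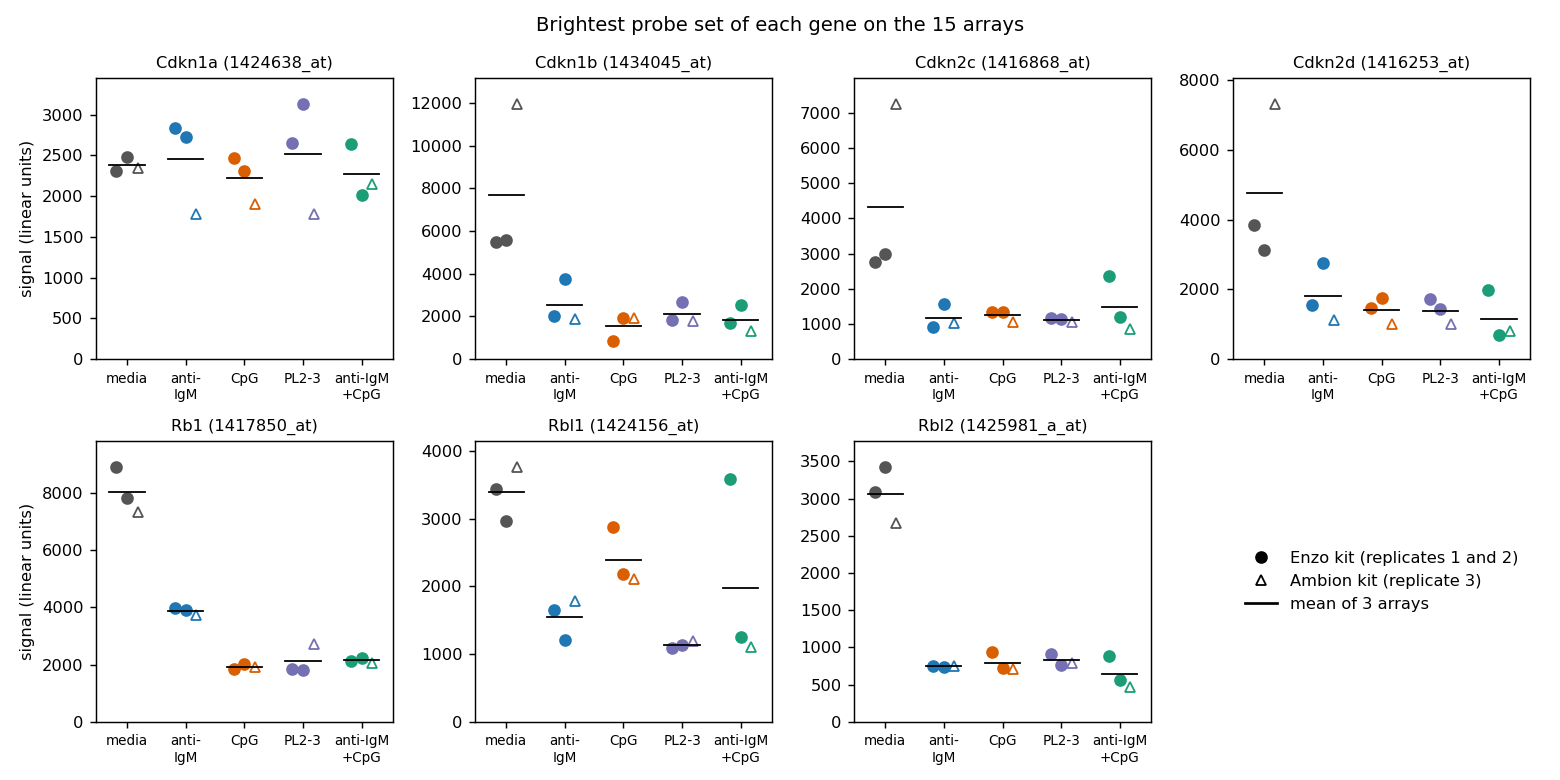
MAS5 signal (vertical axis, linear units from 0) of the brightest probe set of each of the 7 genes on every array, by group, with filled circles for the Enzo kit, open triangles for the Ambion kit and a line at the mean of 3 arrays. The 3 media arrays lie above all stimulated arrays for Cdkn1b, Cdkn2c, Cdkn2d, Rb1 and Rbl2, whereas the groups of Cdkn1a overlap.

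**Figure D2:**
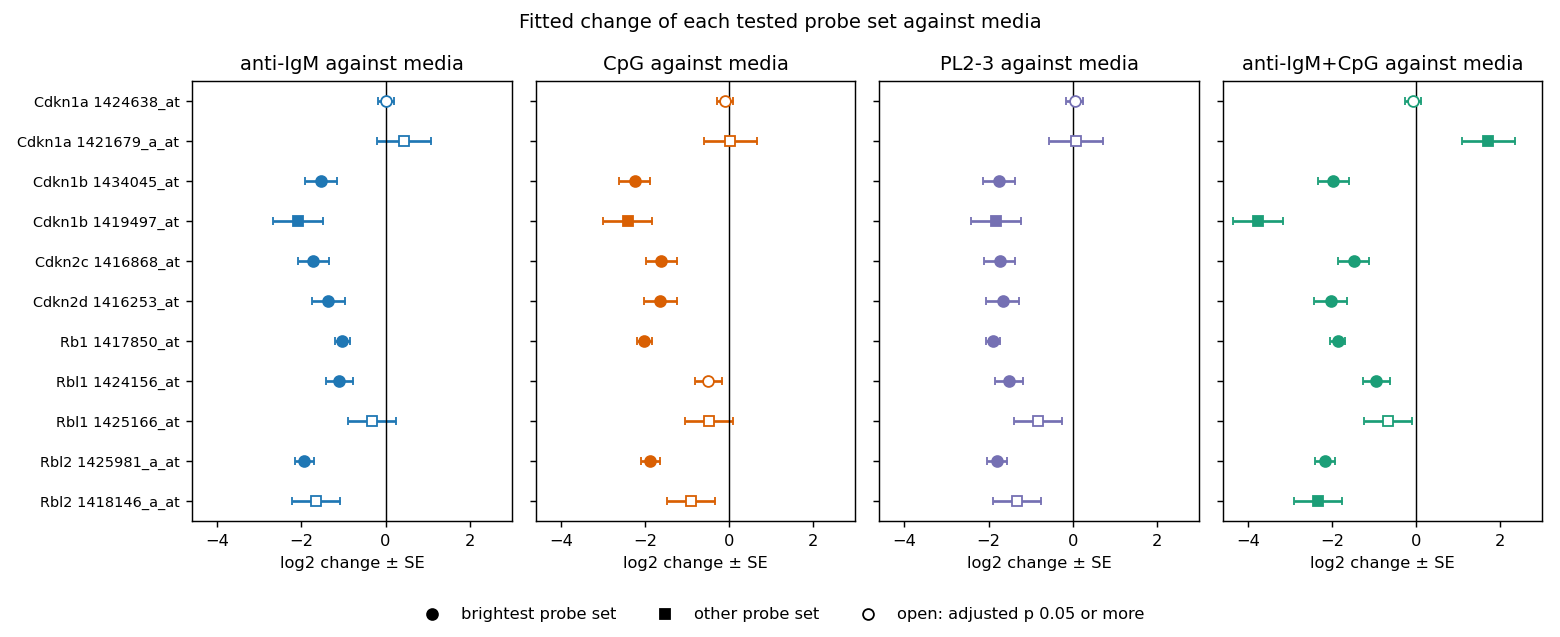
Log2 change against media ± SE from limma (horizontal axis) for the 11 tested probe sets in the 4 stimulated groups, with circles for the brightest probe set of a gene, squares for the others and open symbols for an adjusted p of 0.05 or more. The brightest probe set of Cdkn1a lies near 0 in every group, and those of Cdkn1b, Cdkn2c, Cdkn2d, Rb1 and Rbl2 lie below -1 in every group.

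Among the pocket proteins, Rb1 showed the clearest steps. Its signals were 8930.2, 7844 and 7330.3 in media, and 3987, 3909 and 3740.2 with anti-IgM. They were 1830.3, 2033 and 1902 with CpG, 1858, 1822 and 2731 with PL2-3, and 2141, 2241 and 2053 with anti-IgM+CpG. All 3 anti-IgM arrays therefore lay below all media arrays and above all arrays of the other 3 groups. Against media Rb1 fell by 1.03 ± 0.18 (SE, n = 3 per group; limma adjusted p = 0.00117), 2.04-fold, with anti-IgM. It fell by 2.02 ± 0.18 (adjusted p = 2.18e-06), 4.05-fold, with CpG. The fall with PL2-3 was 3.72-fold, a log2 change of -1.89 ± 0.18 (adjusted p = 6.65e-06), and that with anti-IgM+CpG 3.64-fold, a log2 change of -1.87 ± 0.18 (adjusted p = 1.69e-06). The fall was present on the arrays of either kit, between -1.07 and -2.14 on the Enzo arrays and between -0.96 and -1.91 on the single Ambion pairs. These 4 calls held under all 30 alternative settings, 29 for anti-IgM+CpG. The other Rb1 probe set, 1444400_at, was below the median on every array, between 4.35 and 116, and was not tested.

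Rb1 was also the only member that differed between stimulated groups by the limma test. Its level was lower with CpG than with anti-IgM by a log2 difference of -0.99 ± 0.18 (adjusted p = 0.00282), in a comparison where 3.98% of all probe sets were called. This difference stayed called without the anti-IgM+CpG arrays (adjusted p = 0.00174) and was lost with equal medians (-0.87, adjusted p = 0.0665). The level with anti-IgM+CpG was below that with anti-IgM by -0.83 ± 0.18 (adjusted p = 0.0114, against 7.93% of all probe sets called). That call was lost under 4 of 29 settings, among them quantile normalization (-0.70, adjusted p = 0.0556) and equal medians (-0.48, adjusted p = 0.222). Leaving out anti-IgM replicate 2 gave an adjusted p of 0.0532 and fitting the compared groups alone 0.0748. PL2-3 against anti-IgM gave -0.86 ± 0.18, just short of the threshold at an adjusted p of 0.0505, where 0.316% of all probe sets were called, and 0.0261 without the anti-IgM+CpG arrays. The lower groups were not told apart. PL2-3 against CpG gave 0.12 (95% interval -0.25 to 0.50), anti-IgM+CpG against CpG 0.15 (-0.22 to 0.53) and PL2-3 against anti-IgM+CpG -0.03 (-0.40 to 0.35). In these last comparisons 1.92%, 4.39% and 1.68% of all probe sets were called, and no member was.

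Rbl2, whose product p130 is the pocket protein of quiescent cells, fell in all stimulated groups, and no difference between those groups was called. Its signals were 3095, 3429.9 and 2667 in media, 749.8, 732 and 748 with anti-IgM, and 938, 716 and 704 with CpG. With PL2-3 they were 916, 761 and 795, and with anti-IgM+CpG 879, 565 and 472. The lowest media array was thus well above the highest stimulated one, and among the stimulated groups the 3 anti-IgM arrays lay below the 3 PL2-3 arrays while the other pairs of groups overlapped. Rbl2 fell by 1.93 ± 0.23 with anti-IgM (3.82-fold, limma adjusted p = 8.38e-05) and fell by 1.87 ± 0.23 with CpG (3.65-fold, adjusted p = 3.29e-05). It fell by 1.80 ± 0.23 with PL2-3 (3.48-fold, adjusted p = 6.49e-05) and fell by 2.17 ± 0.23 with anti-IgM+CpG (4.50-fold, adjusted p = 4.09e-06). All 4 calls held under every alternative setting run. Both kits gave the fall, from -1.87 to -2.09 on the Enzo arrays and from -1.66 to -2.33 on the Ambion ones.

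A dimmer Rbl2 probe set, 1418146_a_at, was at or above the median on 6 arrays. Its signals were 1038, 1254 and 392 in media and between 31.4 and 486 on the stimulated arrays, so that media replicate 3 fell among them. It was called lower with anti-IgM+CpG alone, at -2.34 ± 0.57 (limma adjusted p = 0.00433). With anti-IgM it gave -1.66 (adjusted p = 0.0663, and 0.0471 with the replicate number as a block), with CpG -0.90 (0.28) and with PL2-3 -1.32 (0.124).

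Rbl1, whose product p107 is itself made from an E2F-driven gene in cycling cells, followed another order. Its signals were 3435, 2970.3 and 3771 in media, 1657, 1208 and 1792 with anti-IgM, and 1086, 1127 and 1194 with PL2-3. With CpG they stayed higher, at 2878, 2188 and 2113, and with anti-IgM+CpG they were split, at 3585, 1255 and 1107. The media arrays lay above the anti-IgM, CpG and PL2-3 arrays, and anti-IgM+CpG replicate 1 lay among the media arrays. The largest of its values was with PL2-3, a change of -1.51 ± 0.32 (2.85-fold, limma adjusted p = 0.00349), and it held under all 30 settings. With anti-IgM it fell by 1.10 ± 0.32 (2.15-fold, adjusted p = 0.0328), a call lost under 10 of 30 settings, among them without any 1 of the media or anti-IgM arrays (-0.92 to -1.28, adjusted p of 0.05 to 0.144). The value with CpG was -0.50 ± 0.32 (95% interval -1.18 to 0.19, adjusted p = 0.3), not called.

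With anti-IgM+CpG Rbl1 fell by 0.95 ± 0.32 (1.93-fold, limma adjusted p = 0.0305), and this value moved with single arrays. Without anti-IgM+CpG replicate 1 it was -1.47 (adjusted p = 0.000129), without replicate 2 -0.70 (0.146) and without replicate 3 -0.61 (0.149). It was -0.95 (0.0664) without media replicate 1, -0.81 (0.119) without media replicate 3 and -0.35 (0.495) with equal medians. Anti-IgM+CpG replicate 1 also had a myeloid marker sum of 148848, against 14151 and 29122 on the other 2 arrays of its group, and an erythroid sum of 100269 against 30055 and 32084; their part in the result was not tested. The difference between PL2-3 and CpG was -1.01 ± 0.32 (adjusted p = 0.163), not called, but it was called without the anti-IgM+CpG arrays (adjusted p = 0.00651). The remaining Rbl1 probe sets were dim. For 1425166_at, with signals of 40.4 to 431 and 3 arrays at or above the median, no change was called, and 1454293_at and 1432604_at were below the median on every array.

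The INK4 inhibitors Cdkn2c and Cdkn2d both fell in all stimulated groups. Cdkn2c, which restrains CDK4 and CDK6, had signals of 2759.8, 2992 and 7256 in media and 906, 1575 and 1029.7 with anti-IgM. They were 1327, 1346 and 1054 with CpG, 1174, 1143 and 1053 with PL2-3, and 2374, 1207 and 850.5 with anti-IgM+CpG. Every media array lay above every stimulated array, with media replicate 3 far above the other media arrays. Cdkn2c fell by 1.72 ± 0.37 with anti-IgM (3.29-fold, limma adjusted p = 0.00496) and fell by 1.61 ± 0.37 with CpG (3.05-fold, adjusted p = 0.00462). With PL2-3 it fell by 1.74 ± 0.37 (3.34-fold, adjusted p = 0.00312) and with anti-IgM+CpG it fell by 1.48 ± 0.37 (2.80-fold, adjusted p = 0.00485). The size depends on the third media array. Without it the changes were -1.15, -1.04, -1.17 and -0.91, still called at adjusted p-values of 0.0222 to 0.0382. On the Enzo arrays alone they were -1.21, -1.06, -1.26 and -0.73, and the calls with CpG (adjusted p = 0.0543) and anti-IgM+CpG (0.106) were lost. The anti-IgM+CpG call was lost with equal medians too (-0.89, adjusted p = 0.0698). On the Ambion arrays, 1 against 1 and untested, they were -2.70 to -2.99.

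Cdkn2d, the other INK4 gene, had signals of 3856, 3125 and 7313 in media, 1547, 2760.2 and 1115 with anti-IgM, and 1467, 1753 and 1016 with CpG. With PL2-3 they were 1720.2, 1433 and 1006, and with anti-IgM+CpG 1990.4, 675 and 802. Media replicate 3 was again the highest, and anti-IgM replicate 2 came close to the lowest media array without reaching it. Cdkn2d fell by 2.03 ± 0.39 with anti-IgM+CpG (4.09-fold, limma adjusted p = 0.000841), fell by 1.66 ± 0.39 with PL2-3 (3.17-fold, adjusted p = 0.00683) and fell by 1.64 ± 0.39 with CpG (3.11-fold, adjusted p = 0.00655). The change with anti-IgM was -1.36 ± 0.39 (2.57-fold, adjusted p = 0.0302). Without media replicate 3 the changes with anti-IgM (-0.79, adjusted p = 0.215), CpG (-1.07, 0.0556) and PL2-3 (-1.09, 0.0563) were no longer called, and the anti-IgM call was also lost without anti-IgM replicate 1 (-1.25, 0.112) or replicate 3 (-1.13, 0.157). The same 3 calls were lost on the Enzo arrays alone, at adjusted p-values of 0.365, 0.113 and 0.109. The order of the group means, from media at 4765 through anti-IgM at 1807, CpG at 1412 and PL2-3 at 1387 to anti-IgM+CpG at 1156, separated no stimulated neighbours.

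Within media, anti-IgM, CpG and anti-IgM+CpG, the erythroid and myeloid marker sums and both INK4 signals were highest on the same array. Within PL2-3 these sums were highest on replicate 2 and the INK4 signals on replicate 1. The NK sum did not peak on the same media array. The summed signal of 5 erythroid genes (Alas2, Klf1, Slc4a1, Epor and Hba-a1) was 79317, 75274 and 141162 in media, 44077, 64176 and 36119 with anti-IgM, and 39233, 54769 and 30945 with CpG. With PL2-3 it was 34683, 43066 and 31491, and with anti-IgM+CpG 100269, 30055 and 32084. Media replicate 3 had the highest signal of all 15 arrays for 4 of these 5 genes and for 8 of 10 myeloid genes, and anti-IgM+CpG replicate 1 had the second highest erythroid sum. Of the erythroid markers none was listed at 0, and Hba-a1 lay between 29.5 and 442. The myeloid sums were 119252, 119977 and 249356 in media. The NK sums were 7441, 6589 and 5860 in media, lowest on replicate 3, and 1931 to 5986 elsewhere. With media replicate 3 and anti-IgM+CpG replicate 1 both left out, Cdkn2c changed by -1.19, -1.08, -1.21 and -1.30, all still called, while Cdkn2d with anti-IgM (-0.84, adjusted p = 0.0802) was not. The part of these cells in the remaining difference was not tested.

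**Figure D3:**
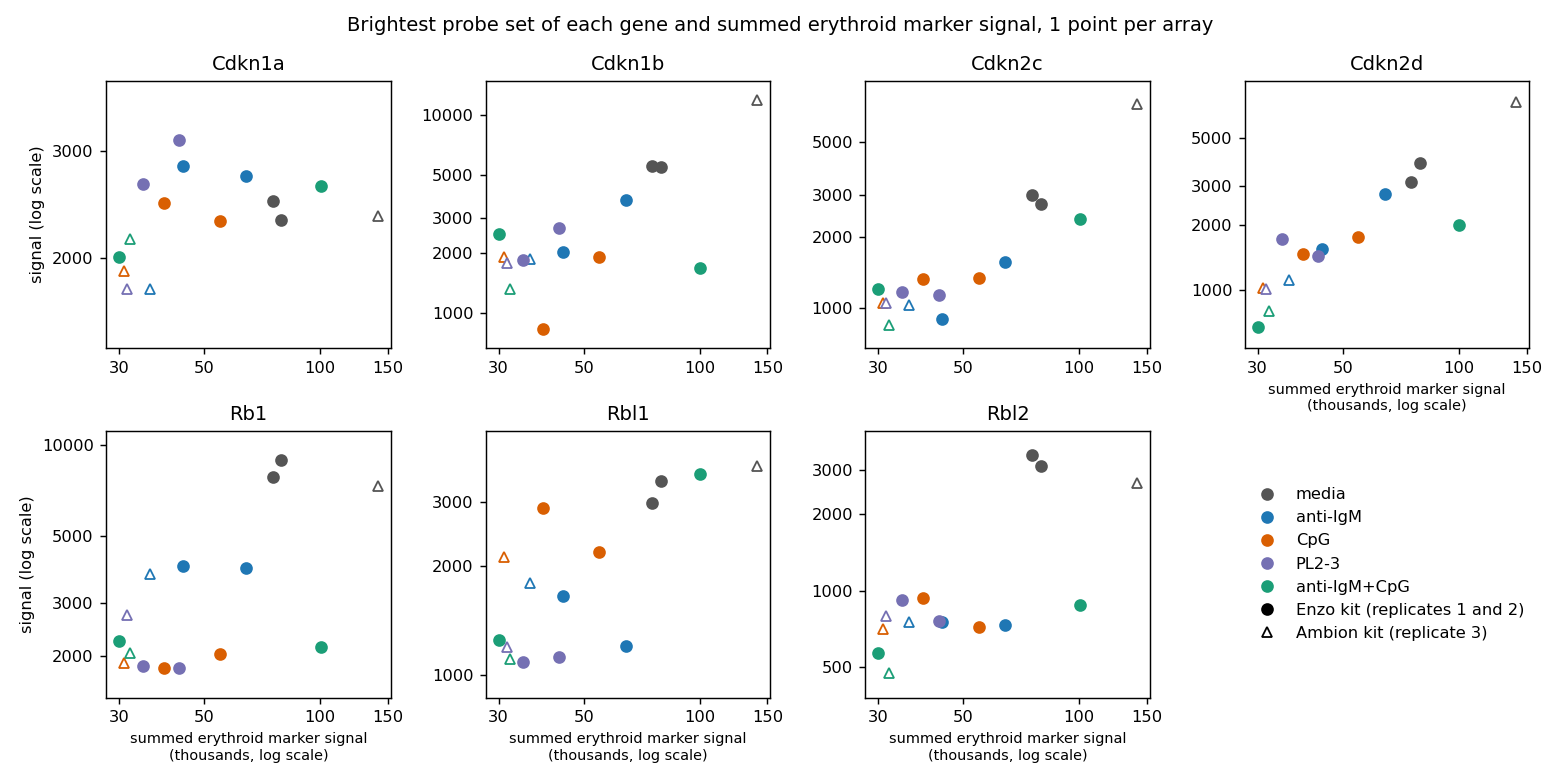
Signal of the brightest probe set of each of the 7 genes (vertical log axes) against the summed signal of 5 erythroid marker genes (horizontal log axis, scaled as labelled), 1 point per array, coloured by group with circles for Enzo and triangles for Ambion. Media replicate 3 has the highest erythroid sum (141162) and the highest Cdkn2c, Cdkn2d, Cdkn1b and Rbl1 signals, whereas its Rb1 signal of 7330.3 is the lowest of the media arrays. Anti-IgM+CpG replicate 1, second in erythroid sum, is second for Rbl1 (3585).

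Cdkn1b encodes p27, which accumulates in quiescent lymphocytes and is removed as they enter the cycle. Its brightest probe set gave 5491, 5562 and 11956 in media, 2017, 3743 and 1867 with anti-IgM, and 825, 1905 and 1913 with CpG. With PL2-3 the signals were 1846, 2669 and 1793, and with anti-IgM+CpG 1679.9, 2509 and 1311. All stimulated arrays lay below all media arrays, and media replicate 3 was the highest. Cdkn1b fell by 2.25 ± 0.37 with CpG (4.74-fold, limma adjusted p = 0.000439) and fell by 1.97 ± 0.37 with anti-IgM+CpG (3.92-fold, adjusted p = 0.000737). The change with PL2-3 was -1.75 ± 0.37 (3.37-fold lower, adjusted p = 0.00345) and that with anti-IgM -1.53 ± 0.37 (2.90-fold, adjusted p = 0.0119). The anti-IgM call was the least firm: it was lost without media replicate 3 (-1.09, adjusted p = 0.0972), anti-IgM replicate 1 (-1.41, 0.0576) or anti-IgM replicate 3 (-1.29, 0.0822), and on the Enzo arrays alone (-0.99, 0.165). With media replicate 3 and anti-IgM+CpG replicate 1 both left out it was -1.08 (adjusted p = 0.0821).

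A further Cdkn1b probe set, 1419497_at, gave the same direction but depended on the kit. Its signals were 6189.9, 6235 and 399 in media, so the Ambion media array lay far below the Enzo ones, the reverse of the brightest probe set. With anti-IgM they were 1459, 672 and 144, with CpG 1205, 402 and 127, with PL2-3 2019, 395 and 348, and with anti-IgM+CpG 179, 152 and 56.3. Within either kit each stimulated array lay below media, with log2 differences of -2.55, -3.01, -2.66 and -4.71 over the Enzo arrays and -1.11, -1.23, -0.16 and -1.85 over the Ambion ones. In the limma fit it fell in all 4 groups, with changes of -2.07 ± 0.59, -2.41 ± 0.59, -1.83 ± 0.59 and -3.76 ± 0.59, with adjusted p-values of 0.0287, 0.00764, 0.0406 and 0.000151. The anti-IgM call was lost in 7 of 28 settings, among them without media replicate 1 (-1.78, adjusted p = 0.116) or 2 (-1.77, 0.12) and without anti-IgM replicate 2 (-1.85, 0.102) or 3 (-1.96, 0.109). The PL2-3 call was lost in 10 of 28, among them without PL2-3 replicate 2 (-1.12, adjusted p = 0.21) and without media replicate 1 (-1.53, 0.152) or 2 (-1.53, 0.154). Leaving out anti-IgM replicate 3 (0.0514) or CpG replicate 3 (0.051) also lost it. Without the labelling term the adjusted p-values with anti-IgM, CpG and PL2-3 were 0.246, 0.115 and 0.271. The anti-IgM+CpG call held in all 27 settings, but its size moved between -4.71 and -2.22. The distance of that group from PL2-3 depended on the labelling too. PL2-3 against anti-IgM+CpG gave 1.93 (limma adjusted p = 0.0914), and 0.39 (0.936) with the labelling read from the actin ratio. The Ambion arrays as a set were lower than the Enzo arrays for it by -2.01 ± 0.40 (adjusted p = 0.0031), in a contrast where 22.1% of all probe sets were called. None of the 7 brightest probe sets was called in that contrast.

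Cdkn1a, which encodes the p53-induced inhibitor p21, did not share the fall. Its brightest probe set gave 2312, 2482 and 2347 in media, 2842, 2731 and 1781 with anti-IgM, and 2464, 2307 and 1907 with CpG. The signals were 2653, 3132 and 1779.7 with PL2-3 and 2635, 2008 and 2155 with anti-IgM+CpG. The groups overlapped throughout, and the means ran from 2226 ± 287 (SD, n = 3) with CpG to 2521 ± 686 with PL2-3, around 2381 ± 90.0 in media. The changes were 0.01 with anti-IgM (95% interval -0.39 to 0.42, limma adjusted p = 0.978) and -0.10 with CpG (-0.51 to 0.31, adjusted p = 0.751). With PL2-3 the change was 0.04 (-0.36 to 0.45, adjusted p = 0.914) and with anti-IgM+CpG -0.08 (-0.48 to 0.33, adjusted p = 0.773). The intervals reach from -0.51 to 0.45, and the sign of these values turned under some settings. The value furthest from 0 was 0.52 with equal medians for anti-IgM+CpG (adjusted p = 0.0511).

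Of the 11 tested member probe sets, the single one called higher against media was the dimmer Cdkn1a probe set 1421679_a_at, with anti-IgM+CpG. Its signals were 186, 101 and 675 in media and 1289, 908 and 832 with anti-IgM+CpG, which did not overlap, while the other groups ranged from 71.7 to 1417. The value was 1.71 ± 0.64 (3.28-fold, limma adjusted p = 0.0442). On the arrays outside anti-IgM+CpG the Ambion replicate was the highest in media, anti-IgM and CpG, and over all arrays the Ambion set was higher by 1.39 ± 0.43 (adjusted p = 0.0291). Within the kits the rise was 2.43 on the Enzo arrays and 0.27 on the Ambion ones, and it was 0.49 (adjusted p = 0.613) with the labelling read from the actin ratio. The call was lost in 15 of 27 alternative fits, among them the fit with the replicate number as a block (adjusted p = 0.0511).

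**Figure D4:**
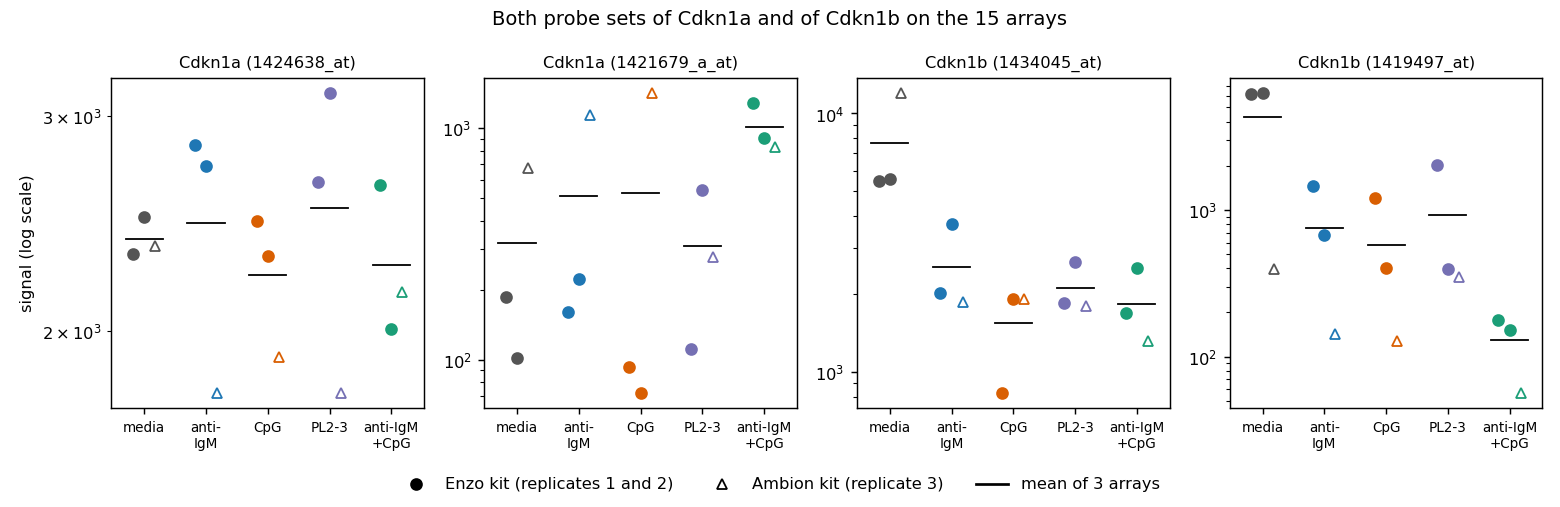
Signal (vertical log axis) on each array, by group, for both probe sets of Cdkn1a and of Cdkn1b, with filled circles for the Enzo kit, open triangles for the Ambion kit and a line at the mean of 3 arrays. The dimmer Cdkn1b probe set is at 399 on the Ambion media array against 6189.9 and 6235 on the Enzo ones, and the dimmer Cdkn1a probe set is at 832 to 1289 in anti-IgM+CpG.

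Whether anti-IgM and CpG together gave the sum of their separate changes was tested as the combined change minus that sum. For Rb1 the combined change of -1.87 was smaller in size than the sum of -1.03 and -2.02, by 1.19 ± 0.25 (limma adjusted p = 0.0335, where 1.28% of all probe sets were called). For Rbl2 the combined change of -2.17 was smaller in size than the sum of -1.93 and -1.87, by 1.63 ± 0.32 (adjusted p = 0.0276). Cdkn2c (1.84 ± 0.52, adjusted p = 0.0897) and Cdkn1b (1.81 ± 0.53, adjusted p = 0.101) had larger values with larger errors and were not called. Cdkn2d gave 0.97 (adjusted p = 0.409), Rbl1 0.65 (0.51) and Cdkn1a 0.01 (0.99). The dimmer tested probe sets gave 0.22 (adjusted p = 0.924) for Rbl2, 0.73 (0.715) for Cdkn1b, 1.24 (0.525) for Cdkn1a and 0.14 (0.956) for Rbl1. Both calls rest on the anti-IgM+CpG arrays that stood apart, and the Rb1 call was lost in 17 of 29 settings and the Rbl2 call in 13 of 29. With any 1 array of media, anti-IgM or CpG left out, the Rb1 value was 1.10 to 1.28 and not called (adjusted p of 0.0545 to 0.0991). Without anti-IgM+CpG replicate 1 it was 1.18 (adjusted p = 0.0535), and without replicate 2 1.15 (0.0675). The Rbl2 call was lost without media replicate 2 or 3 or any 1 anti-IgM or CpG array (1.54 to 1.72, adjusted p of 0.0505 to 0.0728).

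The genes with the most similar pattern were read from Pearson's r of the log2 values over the 15 arrays, among 13153 candidate genes, as a description. The arrays of a group share their treatment, and r over the 12 arrays without anti-IgM+CpG is given after each value. Rb1 was nearest to Pde2a (0.973, 0.972), Pnrc1 (0.966, 0.972) and Wdr44 (0.957, 0.958), and Rbl2 to Tut7 (0.971, 0.967), Ypel3 (0.967, 0.969) and Cmah (0.954, 0.971). Rbl1 was nearest to Samd9l (0.930, 0.915), Cd3d (0.925, 0.919) and Mpeg1 (0.925, 0.915). Cd3d belongs to the T cell markers. Cdkn2d was nearest to Tk1 (0.972, 0.978), Tal1 (0.960, 0.965) and Rrm2 (0.958, 0.969), and Cdkn2c to Smc4 (0.963, 0.965), Tcf19 (0.954, 0.963) and Fbxo9 (0.951, 0.970). Cdkn1b was nearest to Stradb (0.969, 0.979), Pnrc2 (0.958, 0.977) and Riok3 (0.939, 0.944). For Cdkn1a these were Slc14a2 (0.951, 0.958), Zfp334 (0.933, 0.941) and Gm11827 (0.910, 0.921).

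Among the targets of these inhibitors, the cyclin and kinase genes Ccnd2, Cdk4 and Cdk6 were higher in all stimulated groups and Ccne2 was lower. Of 12 G1 cyclin and kinase genes, each by its brightest probe set, 3 rose and 2 fell with anti-IgM, 5 and 1 with CpG, 5 and 2 with PL2-3, and 6 and 4 with anti-IgM+CpG. Over all 13160 genes tested this way 9.07%, 12.3%, 11.4% and 16.7% rose and 7.81%, 15.1%, 12.2% and 23.8% fell. Ccnd2, the cyclin D2 that B cells induce through their receptor, rose in all 4 groups, by 1.01, 2.55, 1.62 and 2.15. The kinase gene Cdk4 rose by 1.05, 1.24, 1.27 and 1.48 (limma adjusted p of at most 0.000456), under every setting run. Cdk6 rose by 1.21, 1.80, 1.26 and 0.995. Ccne2, which encodes a partner of CDK2, fell, with changes of -1.15, -1.49, -1.76 and -1.67. With anti-IgM the rises of Ccnd2 and Cdk6 and the fall of Ccne2 were lost on the Enzo arrays alone and without media replicate 3. The other CDK inhibitor with a tested probe set was Cdkn2b (p15), at -0.14, 0.97, 0.08 and 0.81 with no call (adjusted p of 0.137 to 0.936). Cdkn1c and Cdkn2a were too dim to test.

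The factors bound by the pocket proteins moved in both directions. Of 10 E2F and DP genes 2 rose and 1 fell with anti-IgM, 2 and 3 with CpG, 2 and 3 with PL2-3, and 1 and 5 with anti-IgM+CpG. The shares that rose were 20%, 20%, 20% and 10%, against 9.07%, 12.3%, 11.4% and 16.7% of all genes tested. The shares that fell were 10%, 30%, 30% and 50%, against 7.81%, 15.1%, 12.2% and 23.8%. Tfdp1, the common dimer partner of the E2Fs, rose by 0.80, 0.89, 0.82 and 0.98, under every setting run. E2f4, the chief partner of p107 and p130, rose by 0.92 with anti-IgM, 0.86 with CpG and 0.96 with PL2-3, at limma adjusted p-values of 0.0298 to 0.0487, calls that held in 13, 18 and 22 of the 30 settings. Tfdp2 fell with CpG (-1.46), PL2-3 (-1.79) and anti-IgM+CpG (-1.52). The atypical repressor E2f7 fell in the same groups (-1.87, -1.67 and -1.76), calls that were lost without media replicate 3. E2f2 fell with anti-IgM (-1.46), PL2-3 (-1.56) and anti-IgM+CpG (-1.10), and E2f8 fell with CpG (-2.33) and anti-IgM+CpG (-2.77), and these were lost without media replicate 3 too.

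Of 8 MuvB and DREAM genes none was called with anti-IgM or CpG, against 9.07% and 12.3% of all genes that rose and 7.81% and 15.1% that fell. In these groups the brightest, the histone chaperone gene Rbbp4, gave -0.17 (limma adjusted p = 0.49) and -0.35 (0.0824). With PL2-3 0 rose and 2 fell (25%), against 11.4% and 12.2% of all genes. There Lin54, the subunit that binds CHR elements, fell by 1.12 and Mybl1 fell by 1.62. With anti-IgM+CpG 1 rose and 1 fell (12.5% each), below the 16.7% and 23.8% of all genes. In that group Mybl2 (B-Myb) rose by 1.06 and Lin54 fell by 0.88. All 4 of these calls were lost under at least 3 settings. Of 9 tested corepressor genes of the pocket proteins, 1 rose and 2 fell with anti-IgM, 2 and 2 with CpG, 1 and 3 with PL2-3, and 3 and 3 with anti-IgM+CpG. The shares that rose were 11.1%, 22.2%, 11.1% and 33.3%, against 9.07%, 12.3%, 11.4% and 16.7% of all genes tested. The shares that fell were 22.2%, 22.2%, 33.3% and 33.3%, against 7.81%, 15.1%, 12.2% and 23.8%. Hdac2, a histone deacetylase gene, rose by 0.60, 0.72, 0.71 and 0.995. The chromatin remodeller gene Smarca2 fell under every setting run (-1.20, -1.54, -1.50 and -1.49), and Arid4a, which encodes an Rb-binding protein, fell too (-0.82, -1.07, -1.54 and -1.53).

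Of 23 tested DNA replication genes that E2F is known to drive, 1 rose and 2 fell with anti-IgM, 1 and 4 with CpG, 1 and 4 with PL2-3, and 2 and 4 with anti-IgM+CpG. The shares that fell were 8.70%, 17.4%, 17.4% and 17.4%, against 7.81%, 15.1%, 12.2% and 23.8% of all genes, and the shares that rose were 4.35%, 4.35%, 4.35% and 8.70%, against 9.07%, 12.3%, 11.4% and 16.7%. Pcna, the sliding clamp of DNA polymerase, rose in all 4 groups, by 0.47, 0.57, 0.51 and 0.81. The nucleotide synthesis genes Rrm2 and Tk1 fell in all 4, with changes of -1.96, -2.15, -2.25 and -2.35 for Rrm2 and -1.35, -1.70, -1.74 and -1.89 for Tk1. On the Enzo arrays alone Rrm2 was called in none of the groups and Tk1 in anti-IgM+CpG only. Both genes were among the nearest in pattern to Cdkn2d, whose highest signal was on the array with the highest erythroid sum. The part of erythroid cells in these changes was not tested.

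Among genes that set p27 levels, the FOXO factor genes, known activators of Cdkn1b transcription, fell. Of 11 tested, 0 rose and 4 fell with anti-IgM, 2 and 2 with CpG, 2 and 4 with PL2-3, and 2 and 4 with anti-IgM+CpG. The shares that fell were 36.4%, 18.2%, 36.4% and 36.4%, against 7.81%, 15.1%, 12.2% and 23.8% of all genes tested. The shares that rose were 0%, 18.2%, 18.2% and 18.2%, against 9.07%, 12.3%, 11.4% and 16.7%. Foxo4 (-2.26, -1.71, -2.54 and -2.14) and Foxo3 (-1.29, -1.91, -1.22 and -1.35) fell in the 4 groups. Foxo1 fell with anti-IgM (-1.11), PL2-3 (-1.03) and anti-IgM+CpG (-0.73), and gave -0.42 with CpG (limma adjusted p = 0.11). Its anti-IgM and PL2-3 calls held under all 30 settings. Rnf123, a subunit of a ubiquitin ligase for p27, fell in the same 3 groups (-0.62, -0.65 and -0.88). The list did not move in 1 direction: the 2 genes called higher with PL2-3 and with anti-IgM+CpG were others, not named here. On the Enzo arrays alone 2 of the 11 genes fell with anti-IgM, 1 with CpG, 2 with PL2-3 and 3 with anti-IgM+CpG.

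Cdkn1a is a target of p53, and several other p53 targets fell. Of 15 tested genes of p53 and its targets, 1 rose and 4 fell with anti-IgM, 1 and 5 with CpG, 1 and 5 with PL2-3, and 2 and 6 with anti-IgM+CpG. The shares that fell were 26.7%, 33.3%, 33.3% and 40%, against 7.81%, 15.1%, 12.2% and 23.8% of all genes tested. The shares that rose were 6.67%, 6.67%, 6.67% and 13.3%, against 9.07%, 12.3%, 11.4% and 16.7%. Trp53inp1 fell (-1.78, -2.38, -2.41 and -2.22), as did Gadd45a, a growth arrest gene (-1.63, -2.12, -1.96 and -2.003). Sesn1, a stress sensor of the mTORC1 pathway, fell, with changes of -1.71, -1.41, -1.53 and -2.01 (limma adjusted p of at most 0.000197). The antiproliferative gene Btg2 fell, with changes of -1.14, -1.97, -1.79 and -2.80 (limma adjusted p of at most 0.000851), and both held under every setting run. Aen, a p53-induced nuclease gene, rose by 1.06, 1.27, 1.23 and 1.69. On the Enzo arrays alone 0 rose and 2 fell with anti-IgM, and 1 rose and 5, 4 and 6 fell in the other groups.

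**Figure D5:**
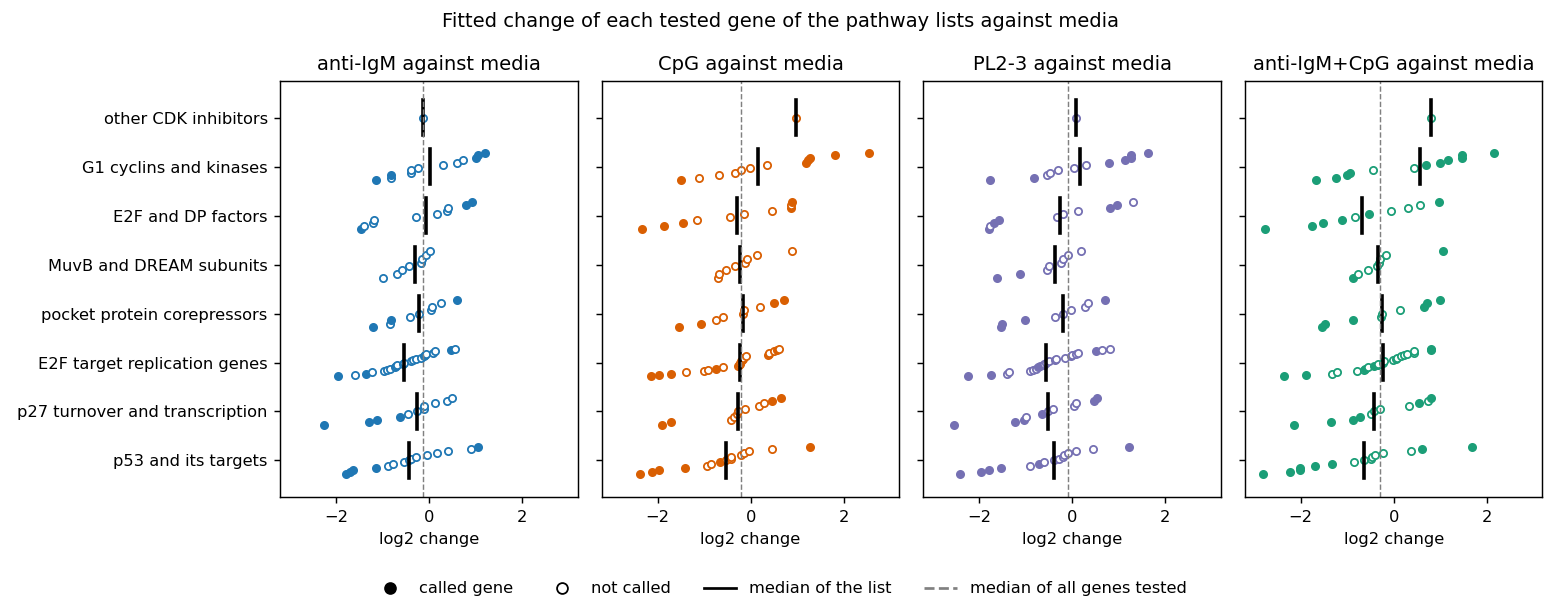
Log2 change against media (horizontal axis) of every tested gene of 8 pathway lists in the 4 stimulated groups, with called genes filled, a solid line at the median of each list and a dashed line at the median of all genes tested. Ccnd2 reaches 2.55 with CpG while Btg2 and Trp53inp1 lie below -1 in every group.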

How the data were processed

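The authors deposited 1 signal per probe set and array, an intensity on a linear scale from MAS5 per the submitters' processing notes, with the version not given in the sources used here. Biotin-labelled total RNA from a Qiagen RNeasy kit was hybridised, per the labels. The 64 control probe sets, which held all 3 empty cells, were left out. Of 45037 probe sets, 34945 had 1 symbol, 932 several and 9160 none, from GEO's platform annotation, and 34741 matched a RefSeq gene by identifier. A probe set was tested where at least 3 of its 15 signals reached the median of their array.

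A pseudocount of 75.19, the 20th percentile over all signals, was added before taking log2. R 4.3.3 with limma 3.58.1 (lmFit, eBayes with an intensity trend) fitted group and labelling kit over all 15 arrays, with 9 residual degrees of freedom, on every tested probe set. The 10 pairs of groups and the non-additivity of anti-IgM and CpG made 11 comparisons. The p-values are two-sided and adjusted by Benjamini-Hochberg within a comparison, and a probe set was called under 0.05. Precision is limited by the 3 arrays per group. The fitting was tested on simulated data. Figures used Python 3.11.15 and matplotlib 3.10.9.

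The members and lists were chosen with earlier results of these data known. Genes named from a list were up to 4 called genes with the largest change in a comparison, followed through the others, or its brightest gene where none was called. Each list gene was taken by its brightest probe set, out of 18193 genes with one. Aen was added as a called rise of its list, which held 2 called rises with anti-IgM+CpG.

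Pairing by replicate number was checked on deviations from group means. Outside anti-IgM+CpG, r was above 0.1 in all 18 same-numbered pairs (0.19 to 0.68), against 12 of 36 others, and with an anti-IgM+CpG array 0 of 12 did. The kit follows the numbers in part.

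Alternatives were quantile normalization, equal medians, a pseudocount of 0 or of 244.92 (40th percentile), a filter dropped or asked of all 15 arrays, no labelling term, a replicate block and labelling read from the actin ratio. Others were Enzo arrays only, no anti-IgM+CpG arrays, eBayes without a trend, 1 probe set per gene, the compared groups only and each array left out. Leaving out both arrays with the highest erythroid sums was added after seeing the data.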

Additional observations from a re-analysis of the deposited data

Results flagged for a closer look

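For the brightest probe sets of Rb1 and Rbl2 the effect of CpG differed with and without anti-IgM in the main fit, by limma's test of the difference itself. The Rb1 call was lost in 17 of 29 alternative settings and the Rbl2 call in 13 of 29. The dimmer Rbl2 probe set 1418146_a_at gave 0.22 (limma adjusted p = 0.924), not called. The combined change minus the sum of the separate changes was 1.19 ± 0.25 for Rb1 (limma adjusted p = 0.0335) and 1.63 ± 0.32 for Rbl2 (adjusted p = 0.0276), so that each gene fell less with both agents than the sum of the falls with each. For the brightest probe sets of both genes all 3 arrays of each stimulated group were below all 3 media arrays. Both values use the anti-IgM+CpG arrays, whose Xist signals and actin ratios differed from those of the other groups, and the part of that difference was not tested.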

How the results depend on the processing

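Of the 11 member probe sets tested, 6 were called against media with CpG, 7 with PL2-3 and 9 with anti-IgM+CpG (8 lower and 1 higher). The shares of all probe sets called in either direction were 21.8%, 18.5% and 37.3%. These 3 member counts stayed within 1.5 times under every alternative. With anti-IgM the count was 7 of 11, where 12.8% of all probe sets were called. It was 4 with equal medians, without the labelling term, on Enzo arrays only and without the trend, and 3 to 8 with 1 array left out. Among stimulated groups the 2 called differences became 1 with quantile normalization, 0 with equal medians, 4 without a pseudocount, 7 on Enzo arrays only, 6 without both arrays of highest erythroid sum, and 1 to 8 with 1 array left out. The 2 non-additive members became 4 with quantile normalization, 0 with equal medians, no labelling term, no trend, the compared groups only or without both arrays of highest erythroid sum, and 0 to 4 with 1 array left out. Over all probe sets the non-additive calls numbered 356, from 20 without a trend to 2875 without anti-IgM+CpG replicate 3. The replicate block changed the calls of the dimmer Rbl2 probe set with anti-IgM (adjusted p = 0.0471) and of the dimmer Cdkn1a probe set with anti-IgM+CpG (0.0511), and of no other member against media. Of the single values, 3218 kept direction and side of the threshold, 107 lost a call, 43 gained one, 119 uncalled values changed sign or moved, and 0 called values reversed.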
